A study of Mus musculus with 43 samples.

Results

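The small RNAs of cauda epididymal fluid were compared with those of caput epididymal fluid in mice without the Rnase9-12 gene cluster. The comparison took every fluid library of the KO genotype from those 2 segments, which gave 3 KO caput and 3 KO cauda libraries, 6 of the 43 samples of the study. All mice were FVB males aged 8 to 12 weeks, and KO mice carried a homozygous germline deletion of Rnase9, Rnase10, Rnase11 and Rnase12, made by genome editing, so that every cell lacked the cluster. The luminal contents were released into medium and spun free of sperm, debris and vesicles, and the RNA of 3 mice was pooled into each fluid library. The RNA was treated with polynucleotide kinase, which removes 3′ phosphates, and libraries were built by OTTR-seq, a template-jumping method for short RNAs. WT fluid of the same 2 segments (3 libraries each) is given beside the KO values where it bears on them.

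The section entry in the sample descriptions read cauda for all 6 caput fluid samples, WT and KO, while their titles and column names read CP for caput, and the titles were followed here. The cluster itself is not among the counted RNAs, so the genotype could not be read from these libraries. Library totals ran from 8854684 to 10938460 counts in caput and from 6533330 to 11018838 counts in cauda fluid. A read with several best matches is counted on each of them, so these totals are not numbers of reads. Replicates correlated at 0.973 to 0.985 (Pearson's r of log2 counts across RNAs, which are not independent) in caput and at 0.947 to 0.972 in cauda fluid. Of the caput libraries, KO caput 1 held more internal tRNA fragments and full-length tRNAs than its partners, and KO cauda 3 had the lowest correlations with its partners (0.947 and 0.95). Levels are counts per 1000000 counts after TMM scaling (CPM), fold changes are cauda over caput on the log2 scale, and an RNA was called at an edgeR adjusted p under 0.05 with a log2 fold change beyond 1 in either direction.

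The epididymis is a single coiled duct in which sperm mature while they pass from the caput, next to the testis, through the corpus to the cauda, where they are stored. Its lumen holds secreted proteins, vesicles and extracellular RNA, much of it fragments of tRNA (tRFs), and the profile of these RNAs differs along the duct. Fragments of tRNA arise when ribonucleases cut mature tRNA, often in the anticodon loop, which leaves a 5′ and a 3′ piece. The deleted genes encode epididymal members of the RNase A superfamily, the family of secreted ribonucleases that includes angiogenin, a nuclease that cuts tRNA. Unlike angiogenin, they lack the catalytic residues of the family, and the study saw no tRNA cleavage by the recombinant proteins in vitro. It also reported no significant fall of RNase activity in KO fluid.

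In KO fluid, 293 of 2023 tested RNAs (14.5%) were called lower in cauda and 232 (11.5%) were called higher. Every cauda library lay below every caput library for 514 RNAs (25.4%) and above every caput library for 364 (18%). The median log2 fold change over all tested RNAs was -0.10. The classes of RNA differed in direction, as the plot by class shows. Full-length tRNAs, tRF_3′ and copies of U6 and 7SK RNA held mainly calls toward lower levels in cauda fluid. Internal tRNA fragments (tRF_other), 28S rRNA repeats and intergenic piRNA loci held mainly calls toward higher levels. The counts of full-length tRNAs, U6 copies and intergenic piRNA loci are descriptions only, as the filter on low counts could favour entries high in 1 segment. The split between lower and higher calls moved with the scaling. Factors taken from RNAs other than tRNAs and rRNAs moved the median over all RNAs to 0.45 and gave 152 lower and 492 higher RNAs. The fluid was cell-free, and in bulk libraries of it fewer source cells of a type and less RNA released per cell cannot be told apart. Without KO caput 2, KO caput 3 or KO cauda 1, which leaves a group with 2 libraries, the calls came to 263, 288 and 261 in all, against 525 with every library.

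**Figure D1:**
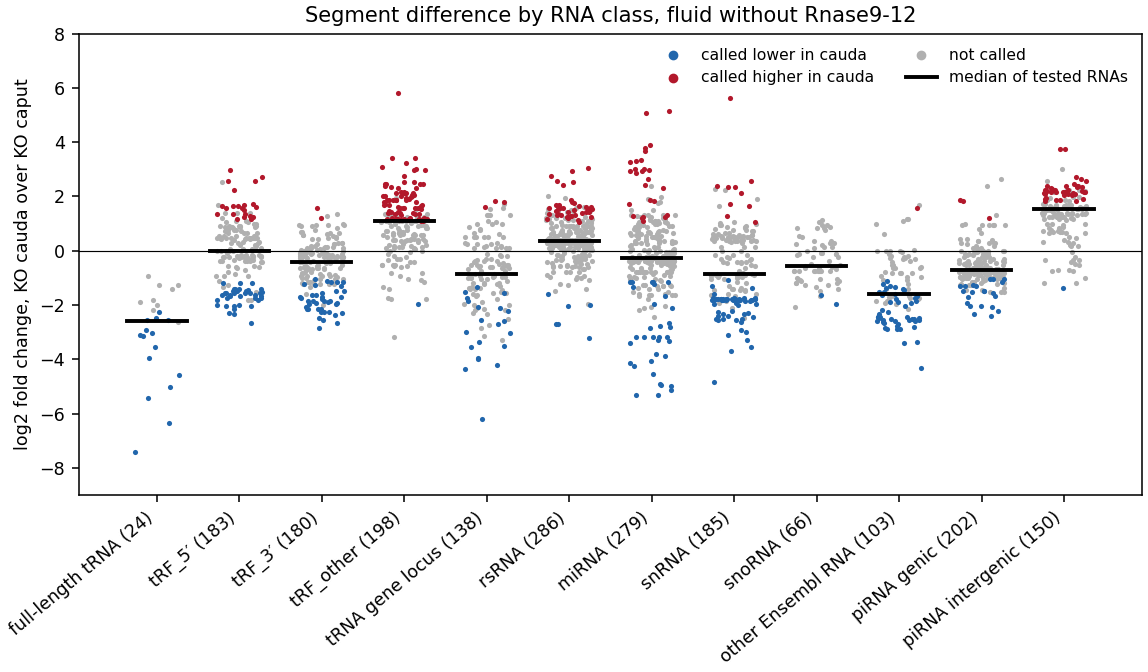
Log2 fold change of cauda over caput KO fluid (vertical axis) for each tested RNA by class, with the number tested in brackets. Blue points were called lower and red points higher in cauda, grey points were not called, and black bars mark medians, from -2.59 for full-length tRNAs to 1.55 for intergenic piRNA loci.

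The share of tRNA fragments among all counts had the same mean in both segments of KO fluid, 80.8% ± 3.19 (SD, n = 3) in caput and 80.8% ± 6.28 (SD, n = 3) in cauda fluid, but the kinds of fragment differed. The fragments were tRF_5′, which start at the 5′ end of the mature tRNA, tRF_3′, which end at its 3′ end, and tRF_other, which touch neither end. Of all tRF counts, tRF_5′ made up 35.8, 44.1 and 36.8% in the caput libraries and 50.4, 46.5 and 46.4% in the cauda libraries. The share of tRF_3′ was 59.3, 54.5 and 62.0% in the caput libraries and 42.2, 48.6 and 50.3% in the cauda libraries. Each cauda library was thus above each caput library for tRF_5′ and below each for tRF_3′, as the plot of fragment types shows. For tRF_other the shares were 4.92, 1.39 and 1.24% in the caput libraries and 7.34, 4.87 and 3.30% in the cauda libraries, and KO caput 1 alone among the caput libraries lay within the cauda range. The 2-sided exact permutation test of 3 against 3 libraries gave p = 0.1 for tRF_5′ and for tRF_3′, the smallest it can give, and p = 0.3 for tRF_other, and adjusted over 19 shares none was below 0.271.

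**Figure D2:**
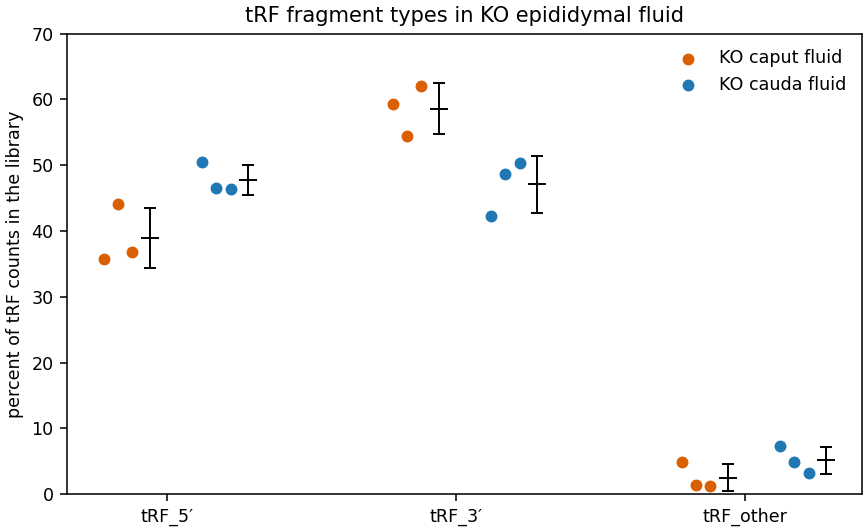
Share of tRF counts (percent, vertical axis) held by tRF_5′, tRF_3′ and tRF_other in each KO caput (orange) and KO cauda (blue) fluid library, with mean and SD beside the points. The cauda points lie above the caput points for tRF_5′ and below them for tRF_3′, and overlap with 1 caput library for tRF_other.

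Counted one by one, 86 of 198 tested tRF_other entries were called higher in cauda fluid and 1 lower, with a median log2 fold change of 1.11. Among 180 tRF_3′ entries, 41 were called lower and 2 higher (median -0.42), and the 183 tRF_5′ entries were divided, with 38 lower and 22 higher (median -0.005). Leaving out 1 library at a time gave 31 to 84 tRF_other calls toward higher levels, with 31 without KO cauda 1, 41 without KO caput 2 and 49 without KO caput 3. The tRF_5′ calls toward lower levels came to 13, 14, 10 and 16 without KO caput 2, KO caput 3, KO cauda 1 and KO cauda 2 in turn, and those toward higher levels to 10 without KO caput 2 and 11 without KO cauda 3. With scaling factors from other RNAs, the tRF_3′ calls came to 19 lower and 15 higher, and those of tRF_5′ to 8 lower and 50 higher, and tRF_other came to 123 higher. Isodecoders, the tRNA genes that share an anticodon, share reads, so fragments were also summed by anticodon.

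Among these sums, 9 of 49 tRF_5′ were called lower and 7 higher, 14 of 49 tRF_3′ lower and 1 higher, and 1 of 51 tRF_other lower and 21 higher. Over all 1512 sums and other RNAs of that fit, 204 were called lower and 133 higher. Valine tRNAs gave the clearest gain of 5′ fragments. Val-AAC tRF_5′ summed to 9733, 6312 and 8200.3 CPM in caput and 17296, 19708 and 44857 CPM in cauda fluid (log2 fold change 1.76, SE 0.37, adjusted p = 0.00495). Val-CAC tRF_5′ summed to 9155, 5156 and 6749 CPM in caput and 14548, 16326 and 39036 CPM in cauda fluid (log2 fold change 1.73, SE 0.38, adjusted p = 0.00495). In both, the lowest cauda library was above the highest caput library and KO cauda 3 was highest. The 2 anticodons share much of their sequence, so these sums are not independent. Gly-GCC tRF_5′, the 5′ fragment that takes the most tRF_5′ counts, was at 90506, 93039.9 and 127439 CPM in caput and 128845, 116132 and 243602 CPM in cauda fluid and was not called (log2 fold change 0.65, SE 0.32, adjusted p = 0.13), and 1 cauda library lay within the caput range. With scaling factors from other RNAs it was called higher (log2 fold change 1.12, adjusted p = 0.0235). Its share of tRF_5′ counts was higher in each cauda library, 32.3% ± 0.712 (SD, n = 3) in caput and 39.9% ± 4.17 (SD, n = 3) in cauda fluid (exact permutation p = 0.1, the smallest possible). With the most counted entry of each anticodon alone the shares were 18.8, 18.7 and 19.4% in caput and 24.03, 18.3 and 24.8% in cauda fluid, and KO cauda 2 was below all caput libraries. Glu-CTC tRF_5′, another abundant fragment, differed by 0.07 (adjusted p = 0.879) and overlapped between segments.

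The 5′ fragments of arginine tRNAs went the other way. Of 19 arginine tRF_5′ entries, 17 were called lower in cauda fluid and none higher, with a median of -1.62. These entries share reads, and with scaling factors from other RNAs the calls toward lower levels numbered 8 over the tRF_5′ of all tRNAs. Summed, Arg-ACG tRF_5′ was at 18366, 28609.8 and 29644 CPM in caput and 5375, 9034 and 11974 CPM in cauda fluid (log2 fold change -1.54, SE 0.46, adjusted p = 0.0241), a call that was lost without KO caput 2, KO caput 3 or KO cauda 1 and with scaling factors from other RNAs (log2 fold change -0.99). Internal fragments of the same amino acid were called higher in 16 of 18 entries (median 1.60), which share reads as well. Summed, Arg-ACG tRF_other was not called (log2 fold change 1.10, adjusted p = 0.0513), except with scaling factors from other RNAs (1.63). Arg-TCT tRF_other was called higher (log2 fold change 1.40, adjusted p = 0.0154). That call was lost without KO caput 2, KO caput 3 or KO cauda 1. Of the tryptophan fragments, Trp-CCA tRF_5′ was at 1561, 1744 and 2777 CPM in caput and 612, 758 and 966 CPM in cauda fluid (log2 fold change -1.38, SE 0.36, adjusted p = 0.0124), which was not called without KO caput 3 or with scaling factors from other RNAs (log2 fold change -0.84). Trp-CCA tRF_other was at 642, 265 and 452 CPM in caput and 1799, 1781 and 2497 CPM in cauda fluid (log2 fold change 2.16, SE 0.49, adjusted p = 0.00508), and Trp-CCA tRF_3′ was the only tRF_3′ sum called higher (log2 fold change 1.21, SE 0.42, adjusted p = 0.0439), a call lost without any one of KO caput 1, KO caput 2, KO caput 3 and KO cauda 3. The groups did not overlap for Arg-ACG tRF_5′, Trp-CCA tRF_5′ and Trp-CCA tRF_other. These arginine and tryptophan sums were singled out after their values were seen.

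Lysine 3′ fragments were lower in cauda fluid, and all 8 tested lysine tRF_3′ entries were called. Lys-TTT tRF_3′ was at 2887, 2765 and 8382 CPM in caput and 842, 968 and 1235 CPM in cauda fluid (log2 fold change -2.20, SE 0.44, adjusted p = 0.00495). For Lys-CTT tRF_3′ the values were 6813, 4569 and 8506 CPM in caput and 1214, 1235 and 4031 CPM in cauda fluid (log2 fold change -1.62, SE 0.45, adjusted p = 0.0169), a call that was lost without KO cauda 1 (adjusted p = 0.0643). Each caput library was above each cauda library in both. Pro-CGG tRF_3′ (log2 fold change -1.78, SE 0.40, adjusted p = 0.00506) and Arg-TCT tRF_3′ (log2 fold change -1.41, SE 0.31, adjusted p = 0.00495) were called lower as well. With scaling factors from other RNAs, Arg-TCT tRF_3′ was still lower but missed the fold threshold (log2 fold change -0.94, adjusted p = 0.0446). His-GTG tRF_3′ was at 57020.2, 58551 and 96369 CPM in caput and 39565, 99399.9 and 73528 CPM in cauda fluid and did not separate the segments (log2 fold change 0.00, SE 0.35, adjusted p = 0.993). The 3 fragment types of SeC-TCA, the selenocysteine tRNA, were all called lower, with log2 fold changes of -1.63, -2.10 and -2.0 for tRF_5′, tRF_3′ and tRF_other. The tRF_5′ call was lost with scaling factors from other RNAs and the tRF_other call without KO caput 1 or KO cauda 3.

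Internal fragments were called higher for Gln-TTG, at 863, 444 and 645 CPM in caput and 3261, 3235 and 2733 CPM in cauda fluid (log2 fold change 2.24, SE 0.39, adjusted p = 0.00337). Thr-TGT tRF_other was at 124, 59.8 and 80.05 CPM in caput and 657, 386 and 232 CPM in cauda fluid (log2 fold change 2.27, SE 0.41, adjusted p = 0.00425). Gly-ACC tRF_other, the largest difference among the sums of fragments, was at 6.83, 3.09 and 4.61 CPM in caput and 73.5, 26.8 and 13.7 CPM in cauda fluid (log2 fold change 2.98, SE 0.58, adjusted p = 0.00495). All 3 sums kept their call in every setting tried and lay higher in each cauda library than in any caput library. Gly-GCC tRF_other was not called (log2 fold change 0.53, SE 0.68, adjusted p = 0.575), with 12451, 1104 and 1646 CPM in caput and 7263, 5892 and 8806 CPM in cauda fluid. Its high value in KO caput 1 was shared by the internal fragments of Glu-CTC, Glu-TTC, Gly-CCC and His-GTG, and these 5 sums overlapped between segments. Without KO caput 1, Gly-GCC (log2 fold change 2.41, adjusted p = 0.00975), Glu-TTC (2.48, adjusted p = 0.00916) and His-GTG tRF_other (2.39, adjusted p = 0.00281) were called higher, while without KO caput 2 Gly-GCC tRF_other was at -0.06. Cys-GCA tRF_other (log2 fold change 1.5, SE 0.39, adjusted p = 0.0116), Lys-TTT tRF_other (adjusted p = 0.0432), Val-AAC tRF_other (adjusted p = 0.043) and iMet-CAT tRF_other (adjusted p = 0.0338) were called, but Cys-GCA was not called without KO caput 2 or KO cauda 1, and the others without any one of KO caput 2, KO caput 3 and KO cauda 1. Val-AAC was also not called without KO cauda 3, nor iMet-CAT without KO cauda 2. Lys-TTT, Val-AAC and iMet-CAT tRF_other lost their calls with library totals as well. With the most counted isodecoder, Lys-TTT (adjusted p = 0.0634) and Val-AAC (adjusted p = 0.108) were not called.

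**Figure D3:**
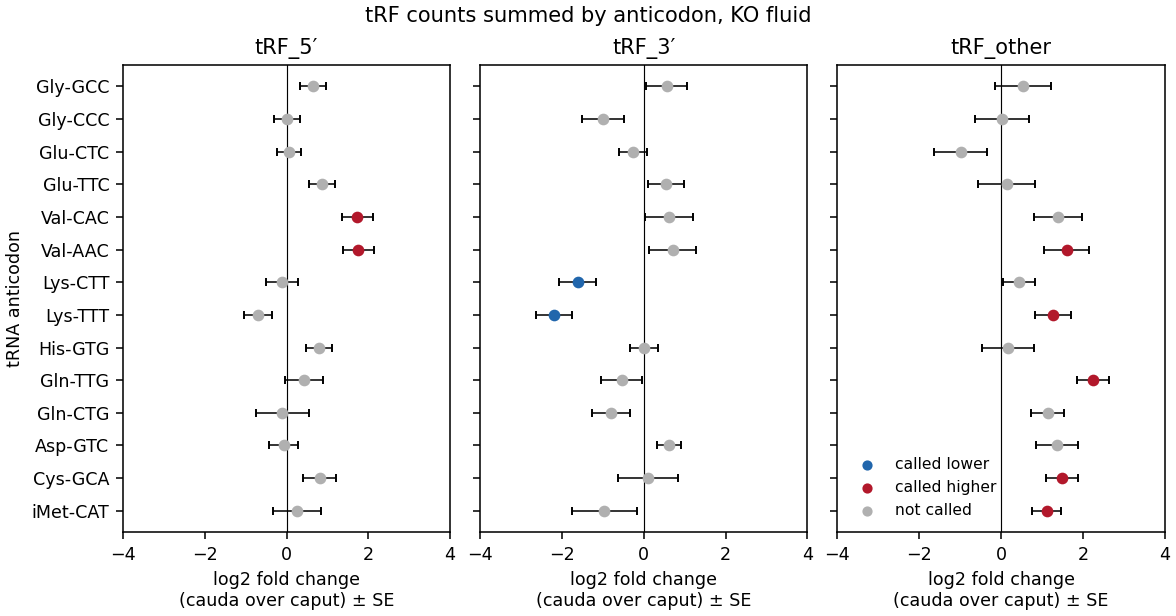
Log2 fold change of cauda over caput KO fluid (horizontal axis, ± SE) of tRF counts summed over 14 anticodons, for tRF_5′ (left), tRF_3′ (middle) and tRF_other (right). Red and blue points were called higher and lower, from -2.20 for Lys-TTT tRF_3′ to 2.24 for Gln-TTG tRF_other.

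Full-length mature tRNAs were scarce in both segments, and scarcer in cauda fluid. They held 0.276, 0.0618 and 0.0716% of counts in the caput libraries and 0.00948, 0.00161 and 0.0216% in the cauda libraries, and each cauda library was below each caput library (exact permutation p = 0.1). Of 24 tested full-length tRNAs among 215 listed, 15 were called lower and none higher (median -2.59). Entries scarce in cauda fluid could pass the filter on low counts through the caput libraries, so the count and median are a description only. The count ran from 7 to 22 when 1 library was left out, with 7, 8 and 9 without KO caput 1, KO cauda 1 and KO cauda 2, 10 without KO caput 2 and 22 without KO cauda 3. tRNA-Asp-GTC-1 was at 1018, 121 and 186 CPM in caput and 4.99, 1.16 and 1.33 CPM in cauda fluid (log2 fold change -7.39, SE 1.29, adjusted p = 0.00102). For tRNA-Glu-TTC-2 the levels were 248, 59.4 and 144.9 CPM in caput and 2.53, 0.387 and 7.99 CPM in cauda fluid (log2 fold change -5.41, SE 0.94, adjusted p = 0.00102). KO caput 1 held the highest level of both, and even the lowest caput library was several times above the highest cauda library. The sums of Asp-GTC fragments were not called. Its tRF_5′ differed by -0.07 (adjusted p = 0.896) and tRF_3′ by 0.61 (adjusted p = 0.123), the latter called higher with scaling factors from other RNAs (log2 fold change 1.13). Its tRF_other differed by 1.37 (adjusted p = 0.0552), and was called higher with scaling factors from other RNAs (1.82), with DESeq2 size factors (1.42), without KO caput 1 (2.14) and with the most counted isodecoder (1.45). Reads at tRNA gene loci, which extend beyond the mature tRNA, were called lower in 21 of 138 cases, a share near that of all RNAs (14.5%), and higher in 3. Scaling factors from other RNAs gave 7 lower and 6 higher, and calls toward lower levels came to between 7 and 10 without any one library other than KO cauda 3. tRNA-Arg-ACG-1-1 was at 10.9, 10.5 and 8.39 CPM in caput and 0.984, 1.03 and 1.66 CPM in cauda fluid (log2 fold change -3.04, SE 0.48, adjusted p = 0.000366). mt-tRNA-Asp-GTC-1-1, a mitochondrial tRNA, had 12, 36 and 10 reads in caput and 0 in each cauda library, which is at least 16.9-fold lower when the cauda group is set to a floor of 3 reads in all.

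miRNAs, the short guides of Argonaute proteins, made up 1.05, 1.60 and 1.07% of counts in the caput libraries and 0.910, 0.953 and 0.527% in the cauda libraries, and each cauda library was below each caput library (exact permutation p = 0.1). Of 279 tested miRNA genes, 34 were called lower and 26 higher, both below the shares of all RNAs (14.5% and 11.5%). Among the 60 called genes, 41 had a mature sequence in RefSeq, of which 15 were called lower and 26 higher. The other 19, all called lower, are Ensembl predictions without a RefSeq entry. The counts do not tell the 2 arms of a hairpin apart, so the values below are for the gene. With scaling factors from other RNAs the calls came to 24 lower and 66 higher, and calls toward lower levels to 21 without KO caput 2 and 20 without KO cauda 1. Calls toward higher levels came to 11 to 15 without any one library other than KO cauda 2, where they were 25.

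Mature forms of some of the called miRNAs, those described below and their seed partners, are shown 5′ to 3′ (RefSeq, GRCm38.p6), with the seed, bases 2 to 8 that pair with targets, in capitals. Of the genes called lower in cauda fluid, the 6 shown have different seeds. 
miR-204-5p: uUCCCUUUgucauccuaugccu
miR-135a-5p: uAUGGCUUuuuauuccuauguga
miR-429-3p: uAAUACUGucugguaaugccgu
miR-148a-3p: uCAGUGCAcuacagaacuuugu
let-7e-5p: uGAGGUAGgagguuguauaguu
miR-9-5p: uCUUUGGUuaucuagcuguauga

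The genes called higher hold several groups with a shared seed, namely miR-34b and miR-34c, miR-221 and miR-222, miR-15a and miR-15b, miR-743a and miR-743b, and miR-465a, b and c. miR-883a-3p comes from the block of genes on chromosome X described below. 
miR-34b-3p: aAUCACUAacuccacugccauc
miR-34c-3p: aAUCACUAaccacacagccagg
miR-221-3p: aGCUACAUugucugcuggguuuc
miR-222-3p: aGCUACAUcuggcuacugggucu
miR-15a-5p: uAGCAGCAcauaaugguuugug
miR-15b-5p: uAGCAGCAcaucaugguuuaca
miR-743a-3p: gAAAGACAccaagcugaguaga
miR-743b-3p: gAAAGACAucaugcugaauaga
miR-465a-5p: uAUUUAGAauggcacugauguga
miR-465b-5p: uAUUUAGAauggugcugaucug
miR-465c-5p: uAUUUAGAauggcgcugaucug
miR-883a-3p: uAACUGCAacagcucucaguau

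Mir204, a miRNA of epithelial tissues, was at 77.8, 72.3 and 89.2 CPM in caput and 6.96, 11.2 and 5.66 CPM in cauda fluid (log2 fold change -3.32, SE 0.41, adjusted p = 0.000106). Its mature 5p form maps to chr19:22750610-22750631, plus strand (GRCm38). The lowest caput library was far above the highest cauda library, and the call held in every setting tried. Mir135a-1 was at 44.4, 47.8 and 71.9 CPM in caput and 5.13, 3.35 and 9.65 CPM in cauda fluid (log2 fold change -3.18, SE 0.46, adjusted p = 0.000277), and Mir135a-2, which makes the same mature 5p sequence, gave nearly the same counts. Mir429, a member of the miR-200 family that maintains epithelial identity, was at 25.05, 27.1 and 32.1 CPM in caput and 3.72, 5.55 and 12.5 CPM in cauda fluid (log2 fold change -1.97, SE 0.58, adjusted p = 0.018), a call that was lost without any one of the libraries other than KO cauda 3 and with scaling factors from other RNAs (adjusted p = 0.0677). The other members of the family did not pass the test. Mir200c differed by -0.88 (adjusted p = 0.0673), Mir200b by -1.11 (adjusted p = 0.0809) and Mir200a by -1.09 (adjusted p = 0.0986), each with every cauda library below every caput library, and Mir141 by 0.04 (adjusted p = 0.95).

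Mirlet7e was the only one of 12 tested let-7 genes to be called (log2 fold change -1.66, SE 0.54, adjusted p = 0.0279), and its call was lost without any 1 of the 6 libraries, with adjusted p up to 0.131, and with scaling factors from other RNAs. The median over the 12 was -0.30, and Mirlet7i, with every cauda library above every caput library, differed by 0.99 (adjusted p = 0.0782). Mir148a was at 151, 177 and 209.6 CPM in caput and 62.9, 84.1 and 84.04 CPM in cauda fluid (log2 fold change -1.22, SE 0.38, adjusted p = 0.025) and Mir375, a miRNA of secretory cells, at 5.65, 7.82 and 9.47 CPM in caput and 1.26, 1.68 and 0.166 CPM in cauda fluid (log2 fold change -2.81, SE 0.54, adjusted p = 0.00162). The call of Mir148a was lost without any one library other than KO cauda 3 and under 5 other settings, while that of Mir375 was kept under all of them. Both were named after their values were seen. So was Mir9-1, a miRNA known from neurons, at 2.17, 3.38 and 4.33 CPM in caput and 0.211, 0.129 and 0.832 CPM in cauda fluid (log2 fold change -3.16, SE 0.75, adjusted p = 0.0047). Mir9-2 and Mir9-3 make the same mature sequence and had nearly the same counts, and the call of Mir9-1 was lost without KO cauda 1 (adjusted p = 0.0533). No member of the miR-10, miR-99, miR-100 and miR-125 group (8 tested, median -0.07), the miR-30 family (6 tested, median -0.34), the miR-17/92 clusters (9 tested, median 0.77) or the pair Mir21a and Mir22 was called. Mir125b-1, which shares its mature sequence with Mir125b-2, was at 138, 192 and 229 CPM in caput and 175, 309 and 238 CPM in cauda fluid (adjusted p = 0.495) and Mir21a at 228, 277 and 317 CPM in caput and 119, 208 and 280.4 CPM in cauda fluid (adjusted p = 0.445), and both overlapped between segments.

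Some miRNAs known from the male germ line were called higher in cauda fluid, as were 4 other genes given here. Mir34b, of the family of miR-34 and miR-449 that is abundant in spermatogenic and ciliated cells, was at 1.69, 1.65 and 2.03 CPM in caput and 14.4, 9.29 and 15.3 CPM in cauda fluid (log2 fold change 2.86, SE 0.45, adjusted p = 0.000356). Mir34c was at 1.32, 1.24 and 1.35 CPM in caput and 6.39, 2.32 and 4.16 CPM in cauda fluid (log2 fold change 1.72, SE 0.55, adjusted p = 0.0264), a call that was lost without any one of 5 of the 6 libraries. Mir449a was not called (adjusted p = 0.0676), nor was Mir34a (adjusted p = 0.331). For Mir34b and Mir34c every cauda library was above every caput library. Mir222 was at 10.1, 9.22 and 9.47 CPM in caput and 16.4, 21.8 and 33.8 CPM in cauda fluid (log2 fold change 1.32, SE 0.39, adjusted p = 0.0197) and Mir221, its neighbour in a cluster, at 6.59, 5.76 and 8.66 CPM in caput and 9.41, 15.1 and 20.3 CPM in cauda fluid (adjusted p = 0.0429). Mir15a was at 4.33, 4.78 and 6.36 CPM in caput and 6.46, 12.4 and 17.5 CPM in cauda fluid (adjusted p = 0.0345) and Mir15b at 8.85, 14.4 and 13.0 CPM in caput and 30.2, 20.9 and 32.6 CPM in cauda fluid (adjusted p = 0.0471). These 4 genes were chosen after their values were seen, did not overlap between segments, and lost their calls in 7 or more of the settings each, among them the removal of KO cauda 3.

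A block of miRNA genes on chromosome X (chrX:66776757-66839125, GRCm38, a stretch of 62.4 kb on the minus strand) was described after its values were seen. miRNAs of this block are known from testis and sperm. It holds 18 listed genes, of which 13 passed the filter on low counts, and 12 of the 13 were called higher in cauda fluid. Since the caput counts were near 0, these genes passed the filter on the strength of the libraries where they were high, and the count is a description only. All 18 genes, tested or not, had more reads for their depth in the summed cauda than in the summed caput libraries. Summed over the 16 genes with distinct counts, the block had 44, 29 and 19 reads in the caput libraries and 629, 101 and 187 in the cauda libraries, with KO cauda 1 far above its partners. Mir465 had 6, 6 and 3 reads in the caput libraries and 87, 13 and 25 in the cauda libraries (log2 fold change 2.99, SE 0.71, adjusted p = 0.005), and Mir743 4, 1 and 0 reads in the caput libraries and 60, 8 and 15 in the cauda libraries (log2 fold change 3.88, SE 0.85, adjusted p = 0.00343). Mir883a had 0, 1 and 0 reads in the caput libraries and 22, 8 and 16 in the cauda libraries, a depth-corrected ratio of 52.7 with a 95% counting interval of 9.003 to 2127. The number of calls in the block was 5 without KO cauda 1 and 8 to 13 without any other single library.

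**Figure D4:**
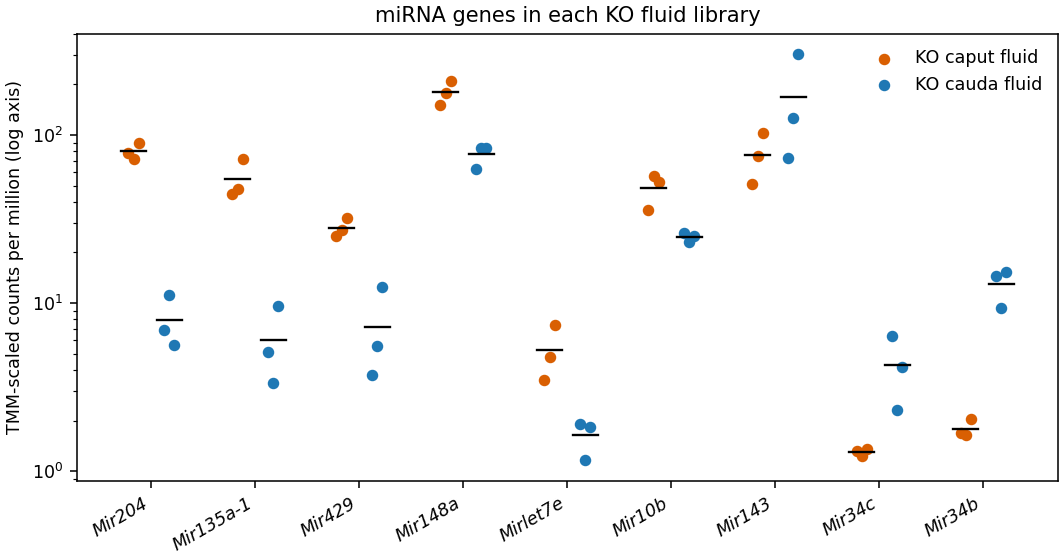
Level (TMM-scaled CPM, log axis) of 9 miRNA genes in each KO caput (orange) and KO cauda (blue) fluid library, with bars at the means. Mir204 lies between 72.3 and 89.2 in caput and between 5.66 and 11.2 in cauda fluid, and Mir34b between 1.65 and 2.03 in caput and between 9.29 and 15.3 in cauda fluid.

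Marker miRNAs of cell types that could contribute to fluid were read as whole lists. The lists overlap with the families above, as 7 of the 10 tested germ-cell markers lie in the chromosome X block and the epithelial list holds the miR-200 family and Mir204. Of 14 listed miRNAs of germ cells and sperm, 10 were tested, 8 were called higher and none lower. Most passed the filter on low counts through the libraries where they were high, so this count is a description only. Their summed level was 4.12 to 5.56 CPM in caput and 18.7 to 47.5 CPM in cauda fluid. As planned, the germ-cell list also held the piRNA loci, which are described below and did not share a direction. Of 352 tested loci, 42 were called higher and 23 lower (median -0.06). The share called higher was near that of all RNAs (11.5%), and the share called lower was below it (14.5%). For epithelium, 2 of 6 were called lower and none higher, and the summed level was 318 to 387 CPM in caput and 83.4 to 188 CPM in cauda fluid. The germ-cell and epithelial sums did not overlap between segments. None of the 6 muscle markers (summed 103 to 196 CPM in caput and 156 to 479 CPM in cauda fluid), 4 white-cell markers (summed 14.97 to 21.9 CPM in caput and 21.7 to 45.9 CPM in cauda fluid), 2 red-cell markers (summed 15.4 to 45.6 CPM in caput and 15.3 to 64.8 CPM in cauda fluid) and 1 endothelial marker (summed 22.8 to 38.4 CPM in caput and 19.1 to 36.8 CPM in cauda fluid) was called, and no listed marker was at 0 in all 6 libraries. The part of these cell types in the other differences was not tested.

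Copies of small nuclear RNAs, assigned to a family by sequence match to the canonical gene, had different directions in different families. U6, the catalytic RNA of the spliceosome, and 7SK, which holds back the elongation factor P-TEFb, are both made by RNA polymerase III. Of 49 tested U6 copies (122 listed), 47 were called lower in cauda fluid and none higher, with a median of -1.82, and every cauda library was below every caput library in all 49. Reads are counted on each copy that they match equally well, so these copies are not independent. The 49 copies held 42 distinct sets of counts over the 6 libraries. Copies scarce in cauda fluid could pass the filter on low counts through the caput libraries. The U6 counts, their separation and their median are thus a description only. Without the filter, 60 copies were called lower. The count of lower U6 copies was 33 to 41 when 1 library was left out and 36 with scaling factors from other RNAs.

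Of the 7SK copies, 28 of 36 were called lower and none higher (median -1.87). Rn7sk itself was at 1054, 999 and 738 CPM in caput and 255, 240.0 and 257 CPM in cauda fluid (log2 fold change -1.89, SE 0.43, adjusted p = 0.00372), and the cauda libraries lay close together far below all caput libraries. Calls of 7SK copies toward lower levels numbered 18 without KO caput 2, 15 without both KO caput 1 and KO cauda 3, and 18 with scaling factors from other RNAs. U1 copies, which recognise 5′ splice sites, held few calls. Of 66 tested, 7 were called higher and 2 lower (median 0.51), and the calls toward higher levels were 1 without KO cauda 1, 3 without KO caput 1, 4 without KO caput 3 and 40 with scaling factors from other RNAs. Rnu1a1 was at 1217, 1402 and 1176 CPM in caput and 2308, 1569 and 1448 CPM in cauda fluid and was not called (adjusted p = 0.319), whereas Gm23485, a diverged copy with 80.6% identity to it, was called higher (log2 fold change 2.39, SE 0.53, adjusted p = 0.00361) and lost the call without KO cauda 1 (adjusted p = 0.0620). Of 17 U2 copies 2 were called lower and none higher, and of 10 U5 copies 1 was called lower and 1 higher.

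Rny1, a Y RNA that binds the Ro60 protein, was at 4492, 7965 and 8123 CPM in caput and 6746, 9468 and 4434 CPM in cauda fluid and did not separate the segments (log2 fold change 0.00, SE 0.39, adjusted p = 0.996). Rny3 was at 3709, 4992 and 5318 CPM in caput and 1873, 3718 and 458 CPM in cauda fluid (adjusted p = 0.194), where KO cauda 3 alone was far below the other 5 libraries. Rn7s1, the 7SL RNA of the signal recognition particle, differed by -0.83 (adjusted p = 0.104), the vault RNA Vaultrc5 by -0.83 (adjusted p = 0.098) and Rpph1, the RNA of RNase P, by -0.78 (adjusted p = 0.151), and none of them passed the test.

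**Figure D5:**
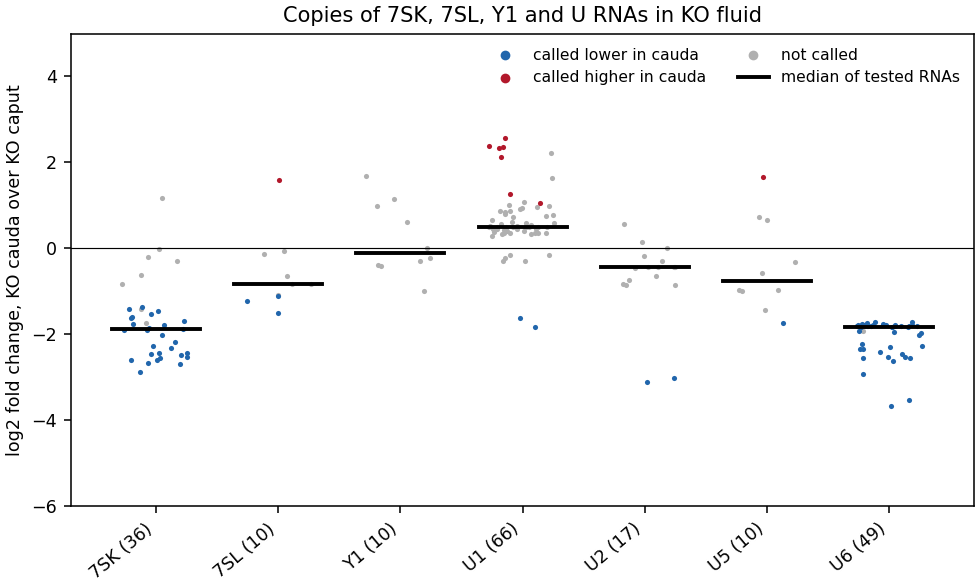
Log2 fold change of cauda over caput KO fluid (vertical axis) for each tested copy of 7SK, 7SL, Y1, U1, U2, U5 and U6 RNA, with the number tested in brackets. Blue points were called lower, red points higher, grey points were not called, and black bars mark medians, -1.87 for 7SK, 0.51 for U1 and -1.82 for U6. The U6 median is a description only, because of the filter on low counts.

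Fragments of ribosomal RNA (rsRNA) took up 8.85, 12.0 and 9.84% of counts in the caput libraries and 13.4, 13.1 and 7.01% in the cauda libraries and overlapped between segments (exact permutation p = 0.8). The 18S part of it was 0.498, 0.636 and 0.376% of counts in the caput libraries and 0.835, 0.888 and 0.680% in the cauda libraries, higher in each cauda library (exact permutation p = 0.1). 5.8S rRNA, which pairs with 28S rRNA in the large subunit, was at 40.5, 52.4 and 26.1 CPM in caput and 86.3, 97.4 and 114 CPM in cauda fluid (log2 fold change 1.32, SE 0.37, adjusted p = 0.0141). Its call was lost without KO caput 3 or without KO cauda 3. It was also lost with a replicate block on the 6 libraries alone (adjusted p = 0.0633). The 28S sequences differed by -0.43 and -0.33, 18S rRNA by 0.59 (adjusted p = 0.132) and 5S rRNA by 0.34 (adjusted p = 0.507), none of them called. Of 100 tested genomic repeats of 28S rRNA, 33 were called higher and 6 lower (median 0.88). Leaving out 1 library gave 6 to 37 calls toward higher levels, with 6 without KO caput 3, 12 without KO caput 1, 13 without KO cauda 3, 15 without KO cauda 1 and 20 without KO caput 2. Of 156 repeats of 5S rRNA, 5 were called higher and none lower.

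piRNA loci, the genomic sources of the germ-cell small RNAs that silence transposons, were read by position. Of 150 tested intergenic loci, 39 were called higher in cauda fluid and 1 lower (median 1.55), and of 202 loci in genes 3 were called higher and 22 lower (median -0.70). Intergenic loci scarce in caput fluid could pass the filter on low counts through the cauda libraries. Their count and median are thus a description only. The intergenic locus of smallest p was at 1.22, 0.988 and 0.812 CPM in caput and 10.6, 3.10 and 6.66 CPM in cauda fluid (log2 fold change 2.73, SE 0.66, adjusted p = 0.00558). For 9-qC-31469.1 the levels were 1.88, 1.73 and 1.76 CPM in caput and 17.5, 2.84 and 7.99 CPM in cauda fluid (log2 fold change 2.40, SE 0.60, adjusted p = 0.00721), and the call was lost without KO cauda 1. In both, KO cauda 1 was highest, KO cauda 2 was lowest of the cauda libraries, and no cauda library reached down to the caput range. Calls of intergenic loci toward higher levels numbered 1 without KO cauda 1, 2 without KO caput 2, 4 without KO caput 3, 14 without KO caput 1, 25 without KO cauda 3 and 76 without KO cauda 2. Among loci in genes, pi-D730040F13Rik.1 was at 13.9, 19.5 and 16.2 CPM in caput and 3.37, 4. and 4.83 CPM in cauda fluid (log2 fold change -2.03, SE 0.39, adjusted p = 0.00162) and pi-Rad54l2.2 at 5.37, 6.42 and 5.82 CPM in caput and 2.53, 1.29 and 1.498 CPM in cauda fluid (log2 fold change -1.69, SE 0.40, adjusted p = 0.005). Calls toward lower levels numbered 5 to 12 when 1 library was left out, and scaling factors from other RNAs gave 6 lower and 13 higher loci in genes, so the direction of these calls turned with the scaling. The share of loci in genes called lower, 22 of 202, was below that of all RNAs (14.5%). A read is counted on every feature it matches, so a locus value need not be piRNA. pi-Ctdsp2.1, the locus with the highest mean level, had nearly the counts of Mir26a-2 in every library and was not called.

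The WT fluid libraries allowed the question of whether the segment difference itself depended on the deletion. WT cauda against WT caput fluid gave 312 lower (15.4%) and 196 higher RNAs (9.69%). Of the RNAs called, 244 were called in the same direction in both genotypes and 0 in opposite directions, 281 were called in KO only and 264 in WT only. The 2 comparisons share no library, but a call in one genotype only does not show that the genotypes differ. Tested directly, as the KO segment difference minus the WT segment difference in edgeR, 0 of 2023 RNAs were called (0%), and the smallest adjusted p was 0.0635. At an unadjusted p under 0.05 there were 79 RNAs with a more negative and 142 with a more positive segment difference in KO. DESeq2 called 41, of which 13 were more negative and 28 more positive in KO, and without KO cauda 3 edgeR called 21. The smallest p was that of the gene locus tRNA-Phe-GAA-1-1, at 5.08, 5.11 and 3.25 CPM in caput and 1.55, 2.58 and 0.333 CPM in cauda fluid of KO mice, at 9.72 ± 5.34 CPM (SD, n = 3) in WT caput and at 0 in each WT cauda library. Next was tRNA-Ala-AGC-10 tRF_5′, with segment differences of -1.19 in KO and -3.31 in WT (adjusted p of the difference = 0.145). The KO call of tRNA-Ala-AGC-10 tRF_5′ was lost without KO caput 2, KO caput 3, KO cauda 2 or KO cauda 3, and with scaling factors from other RNAs (-0.63). The values side by side were, for Mir204, -3.32 in KO and -3.11 in WT, for Mir34b 2.86 and 4.0, for Rn7sk -1.89 and -1.64, and for Val-AAC tRF_5′ 1.76 and 2.22. Class medians lay further apart for full-length tRNAs, -2.59 in KO and -0.75 in WT, for tRF_other, 1.11 and 0.32, for tRF_3′, -0.42 and 0.24, and for U6 copies, -1.82 and -0.92, and these differences of medians were not tested. Full-length tRNAs and U6 copies could pass the filter on low counts through the KO caput libraries, so their KO and WT medians are a description only. The share of full-length tRNA was 0.0264% ± 0.0125 (SD, n = 3) in WT caput and 0.0137% ± 0.0169 (SD, n = 3) in WT cauda fluid.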

How the data were processed

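Small RNA of epididymal fluid was sequenced after polynucleotide kinase treatment and OTTR-seq library construction. The authors deposited raw read counts per RNA (none of them normalized), made with a modified tRAX pipeline on mm10 with UMI-tools for molecular identifiers and cutadapt for trimming, both per the submitters' processing notes. Reads with several best matches were added to all of them, so near-identical RNAs share reads. The reference comprised mature tRNAs, Ensembl RNAs, piRNA loci and rRNA repeats.

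The members compared and the lists of RNAs were chosen with earlier results of these data known. The 18 fluid libraries (WT and KO, 3 segments, 3 each) were fitted together with the edgeR 4.0.16 quasi-likelihood test in R 4.3.3. TMM scaling and the filterByExpr function (minimum count 10, minimum total 15) were used. A prior count of 2 entered the log2 CPM values only, not the fold changes. P-values were Benjamini-Hochberg adjusted over the 2023 RNAs tested of 3178 listed. Where tRNA fragments were summed by anticodon, p-values were adjusted over the 1512 sums and other RNAs of that fit. RNAs were called at adjusted p under 0.05 and a log2 fold change beyond 1. Each library is a pool of 3 mice that the study counts as a biological replicate, so p-values measure the spread between pools. Class shares were compared by 2-sided exact permutation tests. Intervals (exact, 95%) and floors (3 counts) cover counting error only. Library totals, from 6533330 to 11018838 counts, limit precision for RNAs of a few reads.

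RNAs named with values were, per class, those of smallest p in each direction among called RNAs whose groups did not overlap and those of highest mean level, the rRNAs and other fixed RNAs, fragments of 14 anticodons and 2 others in each direction, fixed miRNA families, and those of smallest p for the difference between genotypes. Families of snRNA were assigned with blastn 2.17.0 (identity of 80% or more over 50% or more of the query). Alternatives were other scaling factors, DESeq2 1.42.0, no filter, the 6 libraries alone, a replicate block, 1 entry per group of like RNAs, and leaving out libraries. Items withheld for evaluation are not reported here.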

Additional observations from a re-analysis of the deposited data

How the results depend on the processing

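The number of RNAs called (525) was 522 with DESeq2 size factors, 392 with library totals, 644 with factors from other RNAs, 606 with DESeq2, 465 without a filter, 420 with the 6 libraries alone and 352 with 1 entry of each type. Leaving out 1 library gave 261 to 444, and leaving out KO caput 1 and KO cauda 3 together, a setting chosen after seeing the data, gave 402. Sums by anticodon called (61) numbered 34 to 68 without 1 library. For the difference between genotypes (0 called), DESeq2 called 41, and leaving out 1 library gave 0 to 21. With factors from other RNAs, class medians became 0.54 for tRF_5′, 0.94 for rsRNA, 0.32 for miRNAs, -0.22 for snRNAs and 0.53 for piRNA loci, so the sign turned for tRF_5′, miRNAs and piRNA loci. Without a filter the snRNA median was -1.32. Leaving out 1 library, the median ranged from -0.11 to 0.23 for tRF_5′, from -1.07 to -0.080 for tRF_3′ and from -0.91 to -0.69 for snRNAs. The tRF_5′ share of counts differed by 0.44 on the log2 scale with the most counted entry of each type, against 0.30. Cys-GCA tRF_3′ turned from 0.10 (uncalled) to -1.72 (adjusted p = 0.0434) without KO cauda 3, and leaving out 1 library gave -1.72 to 0.47. Of 77 named RNAs and sums that were called, 35 lost the call under at least 1 alternative, 25 of them under one other than leaving out 1 library. Of the uncalled ones, 36 were called under some alternative and 54 changed sign. The causes were not tested. With 2 libraries left in a group, the spread was pooled over all groups. Depth limits RNAs with 0 to 8 reads in a caput library, such as those of the chromosome X block.

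Replicates of both segments share numbers 1 to 3, and the sample titles do not state whether equal numbers come from the same mice. Correlations of their deviations were 0.0213, 0.248 and 0.00547, which cannot decide this. The libraries were treated as unpaired. With the replicate number as a block, 358 RNAs were called with the 6 libraries alone and 542 with all 18, and for the difference between genotypes 1 RNA was called.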
